A study of Mus musculus with 3 samples.

Results

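Suprabasal epidermal keratinocytes were examined in single-cell transcriptomes of mouse back skin. Members were chosen by their measured values, and a cell was taken when at least 3 of the epithelial genes *Perp*, *Sfn*, *Cdh1*, *Dsp* and *Krt5* and at least 2 of *Krt1*, *Krtdap*, *Sbsn*, *Calm4* and *Lor* were above 0, *Pdgfra* was at 0 and the deposited value of *Krt10* was 3.5 or more. That value is the natural log of 1 plus the unique molecular identifiers (UMIs, each 1 captured transcript) of a gene per 10000 UMIs of the cell. The rule gave 36 of 5208 cells at E16.5, which is 0.691% (exact binomial 95% interval 0.485 to 0.956), and 95 of 5065 cells at P0, which is 1.88% (1.52 to 2.29). Together these were 131 of the 16235 cells of the series, and none of the 5962 cells at E13.5 met the same values.

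The skin came from male C57BL/6 mice with no genetic change and no treatment, as fetuses at the embryonic stages E13.5 and E16.5 and as newborns at P0, the day of birth. Each stage was 1 droplet library of pooled animals, so there was no replicate and no test between groups, and every interval covers counting error only. The fetal skin was freed with trypsin/EDTA and the newborn skin with collagenase IV, so that stage, library and enzyme cannot be told apart. The members were set against 591 cells at E16.5 and 433 at P0 with a *Krt15* value of 2.5 or more, *Krt10* below 2 and *Lhx2* at 0, called *Krt15*-high cells below. Members held 495723 UMIs at E16.5 and 1359351 at P0, with a median per cell of 11452 and 11887, beside 13701 and 7893 in the *Krt15*-high cells. No member barcode recurred in another library, although the libraries shared 32 to 44 barcodes in pairs. Doublet calling marked 84 cells at E16.5 and 106 at P0, of which 0 and 1 were members and 28 and 26 were *Krt15*-high cells.

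The epidermis renews itself from a basal layer of *Krt5* and *Krt14* cells that rest on the basement membrane through hemidesmosomes. Cells that leave this layer switch to *Krt1* and *Krt10*, join through many desmosomes in the spinous layer, and in the granular layer make the loricrin, filaggrin and lipids of the skin barrier. In the mouse this stratification is completed between mid-gestation and birth, and while it begins the embryo is covered by periderm, a transient outer layer.

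*Krt10* itself and 3 neighbouring genes of the suprabasal program were chosen for display, since their transcripts were high in members at both stages. *Krt10* is on chromosome 11, whereas *Sbsn* (suprabasin), *Dmkn* (dermokine) and *Krtdap* (keratinocyte differentiation-associated protein) lie one after another on chromosome 7. The 250 bases before the RefSeq start of each gene are given 5′ to 3′ on the strand of the gene in build GRCm38.p6, at chr11:99389365-99389614 (minus strand) for *Krt10*, chr7:30751221-30751470 (plus) for *Sbsn*, chr7:30763506-30763755 (plus, 1 of 3 windows) for *Dmkn* and chr7:30787655-30787904 (plus) for *Krtdap*. Capitals mark matches on either strand to the AP-1 letters TGANTCA or the TATA letters TATAAA, which did not overlap. Here N is any base, so these letters are a loose form of the AP-1 site. That base was A in *Sbsn* and G in *Dmkn* and *Krtdap*.
Krt10: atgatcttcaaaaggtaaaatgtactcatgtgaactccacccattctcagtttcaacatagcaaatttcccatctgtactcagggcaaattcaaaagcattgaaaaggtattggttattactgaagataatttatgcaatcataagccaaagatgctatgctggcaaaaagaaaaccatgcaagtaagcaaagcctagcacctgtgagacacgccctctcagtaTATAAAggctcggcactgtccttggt
Sbsn: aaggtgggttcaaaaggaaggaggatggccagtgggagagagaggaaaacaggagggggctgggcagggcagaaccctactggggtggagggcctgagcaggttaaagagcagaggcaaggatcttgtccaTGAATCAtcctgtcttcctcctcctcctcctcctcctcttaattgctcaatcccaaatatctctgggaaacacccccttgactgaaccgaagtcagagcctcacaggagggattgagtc
Dmkn: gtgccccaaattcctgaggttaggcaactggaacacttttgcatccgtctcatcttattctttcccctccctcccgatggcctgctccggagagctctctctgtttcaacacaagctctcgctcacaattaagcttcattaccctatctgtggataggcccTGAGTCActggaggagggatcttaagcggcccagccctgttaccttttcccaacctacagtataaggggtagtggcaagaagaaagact
Krtdap: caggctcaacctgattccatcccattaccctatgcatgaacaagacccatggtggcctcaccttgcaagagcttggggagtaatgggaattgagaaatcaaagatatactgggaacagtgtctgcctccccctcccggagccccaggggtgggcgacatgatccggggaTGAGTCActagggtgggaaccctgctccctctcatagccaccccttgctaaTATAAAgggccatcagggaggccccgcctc
The TATA letters began 26 bases before the start in *Krt10* and 30 bases before it in *Krtdap*. The AP-1 letters began at 119 bases before the start in *Sbsn*, 89 in *Dmkn* and 81 in *Krtdap*. Among all 32851 windows of this length, 6.75% held the AP-1 letters and 12.4% the TATA letters. Of 17 windows of the spinous genes listed below, 4 held the AP-1 letters and 3 the TATA letters, and of 36 windows of cornified envelope genes, 9 and 13 did. Windows of barrier lipid genes held the AP-1 letters in 2 of 30 and the TATA letters in 0, those of hemidesmosome genes in 0 and 1 of 16, and those of mitotic genes in 0 and 0 of 17. The lists are small, and no difference from all windows was tested. A match is a stretch of letters and not a site shown to be bound.

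The genes of the rule are given as a description, because they chose the cells. Levels are counts per 1000000 (CPM), the UMIs of a gene summed over the cells of a group and scaled to 1000000 UMIs. *Krt10* stood at 15426 CPM in members and 96.4 in *Krt15*-high cells at E16.5, and at 16382 and 120 at P0. Over single members it ran from 3446 through a median of 13976 to 43739 CPM at E16.5 and from 3246 through 14970 to 52743 at P0. The member nearest the limit at E16.5 had a *Krt10* value of 3.57 beside 3.46 in the nearest cell outside it, and at P0 the values were 3.51 and 3.49. *Krt1*, the keratin that pairs with *Krt10* in filaments, was at 15075 against 76.9 CPM and at 14713 against 151. Members, although under 2% of each library, held 46.9% and 75.5% of all its *Krt10* UMIs.

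**Figure D1:**
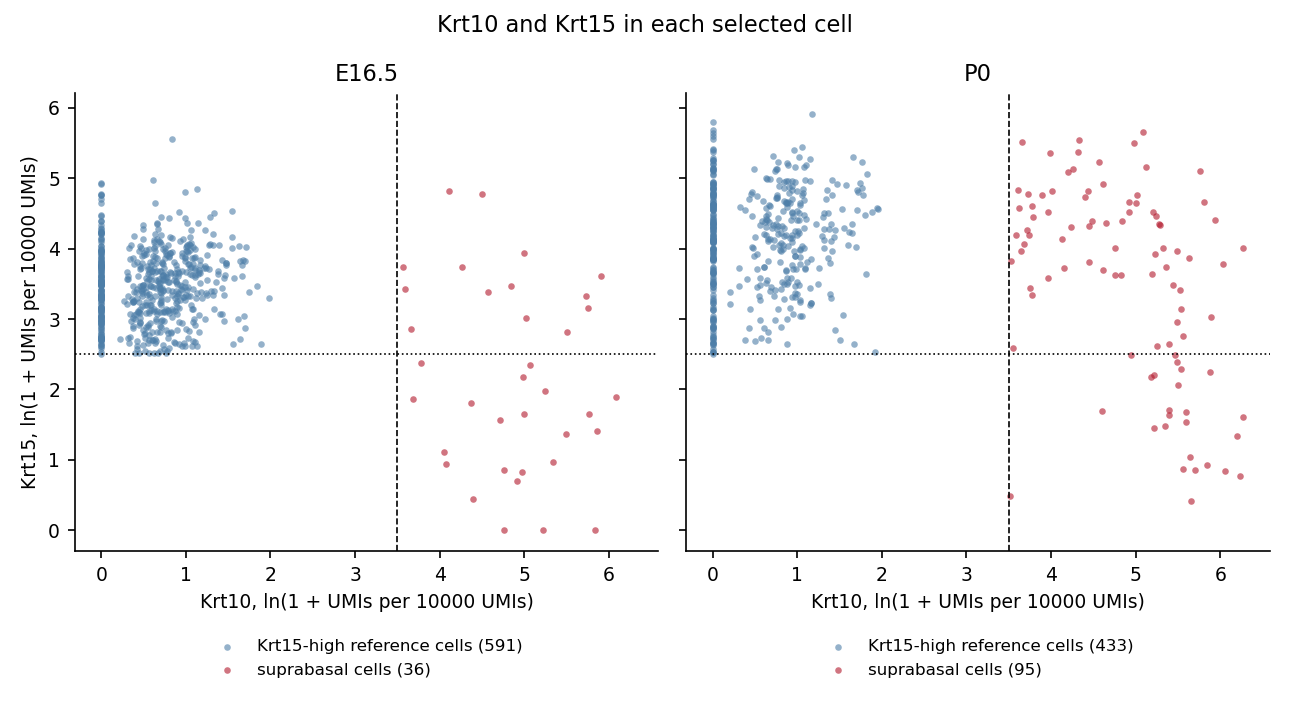
Deposited *Krt10* value (horizontal axis) and *Krt15* value (vertical axis) of each member (red) and *Krt15*-high cell (blue) at E16.5 and P0, both natural logs of 1 plus UMIs per 10000, with the limits of 3.5 and 2.5 as dashed and dotted lines. Members lie right of the *Krt10* limit by construction, and 14 of 36 at E16.5 and 70 of 95 at P0 also lie at or above the *Krt15* value of 2.5 that defines the comparison cells.

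The other suprabasal markers differed in how they were spread. *Krtdap* was above 0 in all members, at 8031 and 6736 CPM, yet also stood at 1390 and 1362 CPM in *Krt15*-high cells. *Sbsn* was at 871 and 622 CPM in members beside 61.9 and 68.0. *Calm4*, a calmodulin-like protein of the epidermis, was at 1148 CPM in members at E16.5 with 6 of 36 cells at 0, and at 4234 CPM at P0 where every member had it, in a range over cells from 54.7 through 2544 to 15576. At E16.5 the members had 3 of the 5 genes in 6 cells, 4 in 17 and all 5 in 13, and at P0 the counts were 4, 82 and 9.

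Loricrin, which fills the cornified envelope and marks the granular layer, did not bear out the label in most cells. *Lor* had a UMI in 14 of 36 members at E16.5, and 1 cell held 192 of the 283 UMIs. That cell had *Lor* at 29995 CPM, *Cnfn* (cornifelin) at 4062, *Calm4* at 12498 and *Ivl* (involucrin) at 1875, with 3 UMIs of *Krt1* and none of *Krt14*. In the 34 members with a *Lor* value below 2, *Lor* was at 71 CPM and *Ivl* had 0 UMIs. At P0 all 95 members had a *Lor* value below 2 and *Lor* was at 8.83 CPM beside 10.3 in the *Krt15*-high cells. With every cell thinned to 3500 UMIs, 16.7% of members at E16.5 had a *Lor* UMI (6.37 to 32.8), against 7.95% of *Krt15*-high cells and 7.03% of endothelial cells, which should lack it and had a median of 11297 UMIs. At P0 these shares were 2.11%, 4.62% and 0.568%, with a median of 8874 UMIs in endothelial cells, and without thinning they were 9.47%, 9.70% and 1.14% (38.9%, 29.1% and 21.1% at E16.5). The member share was not above that of the *Krt15*-high cells at P0, so the members there are *Krt10*, *Krt1* and *Calm4* cells without a measurable granular gene *Lor*. *Lor* was low in that whole library, with 189 UMIs over all its cells beside 3490 at E16.5, so its lack was not particular to the members.

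To find what the members shared beyond the rule, each gene outside it with 50 or more UMIs in the compared groups together was given a difference, log2 of (CPM in members + 10) over (CPM in *Krt15*-high cells + 10). Genes 2-fold apart or more were counted by that size alone. At E16.5, 9505 genes qualified, of which 430 (4.52%) were at least 2-fold higher in members and 456 (4.8%) lower, around a median of -0.06. At P0, 8129 genes qualified, with 260 (3.2%) higher and 423 (5.2%) lower around a median of -0.12. Of the 7900 genes that qualified at both stages, 162 were higher at both, which is 41.0% of those higher at E16.5 and 77.1% of those higher at P0. A further 169 were lower at both, 42.6% and 40.8% of the respective sets.

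Structural and surface genes of the spinous layer stood higher in members at both stages. Of the listed genes that qualified, 12 of 14 were at least 2-fold higher at E16.5 and 10 of 13 at P0, none was 2-fold lower, and the median differences were 2.68 and 2.42. *Ly6d*, a GPI-anchored surface protein of keratinocytes, led at E16.5 with 2756 CPM in members and 29.9 in *Krt15*-high cells, a difference of 6.11 (95% interval 5.96 to 6.27). At P0 it was higher in both groups, 8419 and 2129 CPM, and the difference was 1.98 (1.94 to 2.02). Over single members *Ly6d* ran from 0 through 2802 to 7680 CPM at E16.5 and from 2527 through 8862 to 13841 at P0. *Lypd3*, a related surface protein, was at 367 against 9.46 CPM and at 742 against 43.4, differences of 4.28 and 3.82, with a UMI in 34 of 36 and 94 of 95 members. *Fam25c* was 4.58 higher at E16.5 and 3.95 at P0, and *Tmem45a* 3.79 and 4.10. The smallest differences were those of *Krt78*, -0.12 at E16.5 with all its member UMIs in 1 cell, and *Cd9*, a tetraspanin, 0.08 at P0.

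*Krt77*, a type II keratin of late suprabasal cells, was uneven. It stood at 674 CPM in members at E16.5 beside 2.78, but came from 14 of 36 cells with 41.9% of its UMIs in 1 cell, and at P0 it was at 66.2 CPM beside 4.26 in 17 of 95 cells. In contrast, *Elovl4* was detected in 33 of 36 and 76 of 95 members. The 10 genes furthest up at E16.5 also held *Lgals3* (galectin-3, 4.52), *Rdh12* (a retinol dehydrogenase, 4.12), *Them5* (an acyl-CoA thioesterase, 4.08) and *Slc7a11* (the cystine transporter, 3.92). At P0 the leading 10 held *Them5* (4.24), *Krt16* (a keratin induced in stressed epidermis, 3.79), *Tmprss4* (a membrane protease, 3.72) and *Npl* (3.61).

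**Figure D2:**
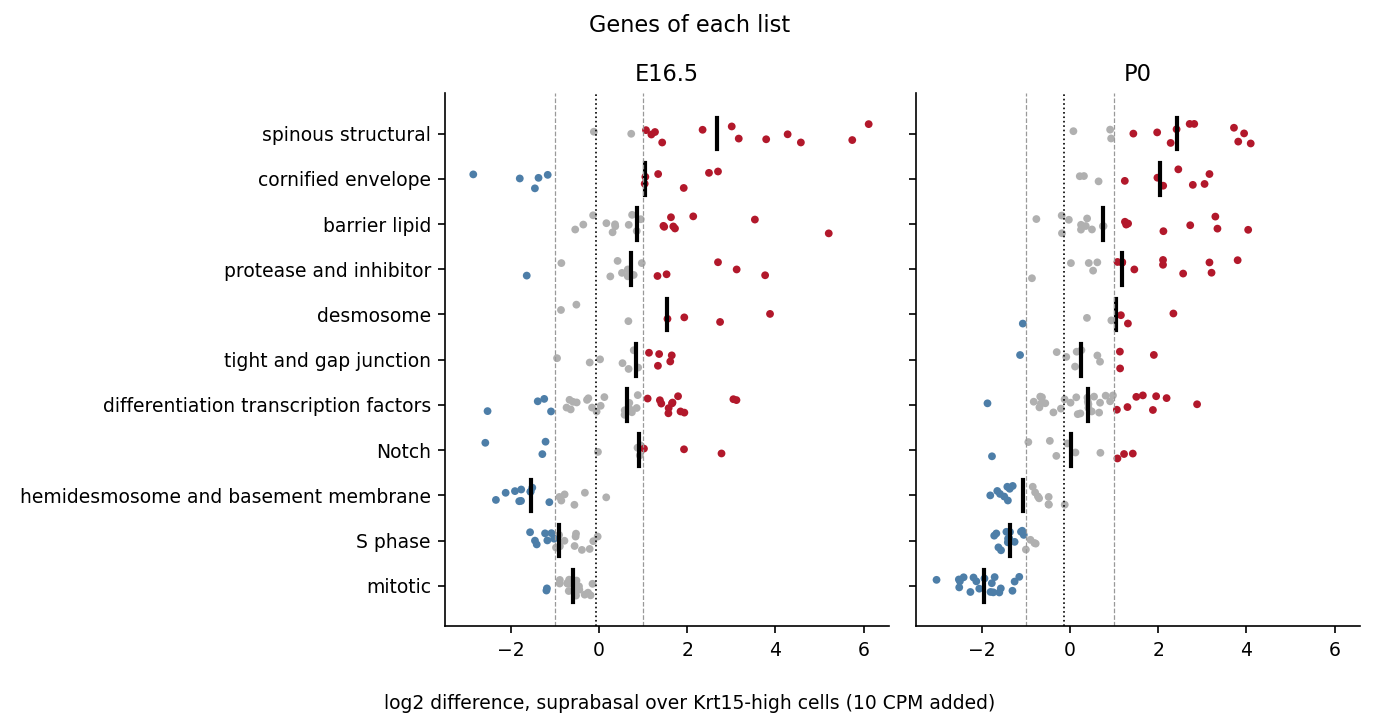
Difference of members over *Krt15*-high cells (log2 of CPM + 10, horizontal axis) for the qualifying genes of each list (vertical axis), 1 point per gene, at E16.5 and P0, with the median of each list as a bar, dashed lines at 2-fold and a dotted line at the median of all genes. Spinous genes lie to the right with medians of 2.68 and 2.42, hemidesmosome genes to the left with -1.53 and -1.07, and mitotic genes at P0 around -1.94.

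Barrier lipid genes were higher for a subset of steps, with 8 of 19 at least 2-fold higher and none lower at each stage and medians of 0.86 and 0.75. *Elovl4*, which elongates the very long fatty acids of barrier ceramides, was at 434 CPM in members and 2.00 in *Krt15*-high cells at E16.5, a difference of 5.21 (4.97 to 5.42), and at 265 and 6.70 at P0, a difference of 4.04 (3.78 to 4.28). *Dgat2*, which makes triglycerides, was 3.53 and 2.73 higher, and *Elovl7* 2.14 and 2.12. *Fabp5*, the epidermal fatty acid carrier, was detected in all members at E16.5 at 7064 CPM beside 2191, and at P0 at 1623 beside 151. Its difference was therefore 1.68 at E16.5 and 3.34 at P0. *Plin2*, a lipid droplet coat protein, was among the lowest of the list at both stages, at -0.36 and -0.76. *Acer1*, an alkaline ceramidase, qualified only at P0, where it was 3.30 higher (3.01 to 3.54).

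Cornified envelope genes split at E16.5 and did not at P0. At E16.5, 6 of 11 were at least 2-fold higher and 5 lower, and at P0 7 of 10 were higher and none lower, with medians of 1.04 and 2.05. The scaffold genes *Evpl* (envoplakin) and *Ppl* (periplakin) were 2.49 and 1.34 higher at E16.5 and 1.24 and 0.65 at P0. *Stfa1*, a stefin A protease inhibitor whose near copies can share its reads, was 1.92 and 2.46 higher. The 5 lower genes at E16.5 were *Sprr1a*, *Sprr1b*, *Sprr3*, *Crct1* and *Cnfn*. *Sprr1a*, a small proline-rich envelope protein, was at 8.07 CPM in members and 120 in *Krt15*-high cells at E16.5 (-2.85, -3.42 to -2.08), and at 130 and 6.90 at P0 (3.05, 2.75 to 3.33), where 20 of 95 members had a UMI and 1 of them held 54.8% of the UMIs. Without that cell *Sprr1a* was at 59.6 CPM in members at P0 and the difference was 2.04. *Cnfn* at E16.5 came from 9 members, with 56.5% of its UMIs in the cell rich in *Lor*. Markers of periderm moved with this group of genes. Their summed level was 26.2 CPM in members and 300.2 in *Krt15*-high cells at E16.5, 4 of 6 were at least 2-fold lower in members, and 83 of 591 *Krt15*-high cells had a UMI of one, with up to 42480 CPM in a cell. With *Krt15*-high cells that had *Krt4*, *Krt6a*, *Krt13* or *Gabrp* left out, 6 cornified envelope genes qualified at E16.5 and all 6 were higher, with a median of 2.25. *Sprr1a* then had 14 UMIs in 554 *Krt15*-high cells, 1.69 CPM, too few to qualify, and a difference of 0.63, so its lower value at E16.5 rested on the cells with periderm genes. *Sprr1b*, *Sprr3* and *Crct1* likewise no longer qualified. At P0 the periderm sum was 1.47 against 6.29 CPM. *Flg* (filaggrin) qualified only at P0, where 4 members held all 84 member UMIs and the *Krt15*-high cells held 2.

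Proteases and their inhibitors that act in shedding of the outer layers were higher in 5 of 14 genes at E16.5, with 1 lower, and in 10 of 15 at P0, with none lower, and their medians were 0.72 and 1.19. *Serpinb12*, a serine protease inhibitor, was 3.77 higher (3.42 to 4.09) and 3.80 (3.54 to 4.02), at 153 against 2.00 CPM and 149 against 1.42. *Casp14*, the caspase that processes filaggrin, was at 84.7 CPM in members beside 0.89 in *Krt15*-high cells, and at 109 beside 2.84. *Asprv1*, an aspartic protease with the same substrate, was 1.33 and 2.11 higher. Of the kallikreins, *Klk8* was 0.79 higher at E16.5 and 2.11 at P0, while *Klk10* was at -1.64 and -0.86.

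Transcripts of cell contact genes differed by the kind of contact. Desmosome genes were higher in 4 of 7 at E16.5 and in 3 of 6 at P0, where *Dsg2* was lower, with medians of 1.55 and 1.05. *Dsg1a* (desmoglein 1) was at 335 CPM in members at E16.5 and at 252 at P0, where *Krt15*-high cells stood at 41.6, and its differences were 3.88 (3.61 to 4.14) and 2.35 (2.13 to 2.57). *Dsg2*, the desmoglein of simple and basal epithelia, was lower at both, -0.86 and -1.07, at 10.1 against 26.5 CPM and 3.68 against 18.7. Tight and gap junction genes were higher in 5 of 12 at E16.5 and 3 of 11 at P0. Among them *Gja1* (connexin 43) was 1.13 higher at E16.5 and -0.30 at P0, *Cldn4* 1.34 and 1.14, and *Gjb6* (connexin 30) -0.95 and -1.13.

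Hemidesmosome and basement membrane genes were lower. Of 16 that qualified, 10 were at least 2-fold lower at E16.5 and 8 at P0, none was higher, and the medians were -1.53 and -1.07. *Col17a1*, the transmembrane collagen of hemidesmosomes, was at 40.3 CPM in members and 244 in *Krt15*-high cells at E16.5 (-2.34, -2.88 to -1.81), and at 91.2 and 261 at P0 (-1.42, -1.67 to -1.18). *Itgb4*, its integrin partner, was -1.56 and -1.65, and *Lamb3*, a chain of laminin 332, was -1.77 and -1.80. *Plec* (plectin), which also links filaments elsewhere in the cell, differed by 0.16 and -0.12 with intervals that reached across 0. *Krt14*, the basal keratin, was at 2959 CPM against 5655 and at 4730 against 9808, differences of -0.93 and -1.05. Over single members it was uneven, with quartiles of 161, 263 and 4829 CPM at E16.5 and 230, 3058 and 7344 at P0. After thinning, 61.1% and 78.9% of members had a *Krt14* UMI, beside 33.5% and 35.8% of endothelial cells, which should lack it and had medians of 11297 and 8874 UMIs (without thinning 88.9% and 96.8% beside 75.1% and 60.2%).

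The regulators of differentiation did not move as 1 block. Of the listed transcription factors, 12 of 34 were at least 2-fold higher and 4 lower at E16.5, and 8 of 33 higher and 1 lower at P0, with medians of 0.64 and 0.42. *Zfp750*, a zinc finger factor needed for terminal differentiation, was at 145 CPM in members and 7.90 in *Krt15*-high cells at E16.5 and at 164 and 13.6 at P0, which gave 3.12 (2.75 to 3.46) and 2.88 (2.60 to 3.15). *Grhl1* and *Grhl3*, Grainyhead-like factors of the barrier and desmosome genes, were 3.05 and 1.79 higher at E16.5 and 2.19 and 1.65 at P0. *Ovol1* was also higher at both stages, by 1.67 and 1.88. *Klf4*, a barrier factor, was below the 2-fold size at both, 0.69 and 0.91. *Trp63*, which keeps the basal program, was -0.67 and -0.63, and *Sox4* was lowest at -2.53 and -1.87.

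Genes of Notch signalling, which drives the step from basal to spinous cells, differed from one another, also within a role. The receptor *Notch3* was at 109 CPM in members and 7.35 in *Krt15*-high cells at E16.5, a difference of 2.78 (2.37 to 3.16), and at 27.2 and 3.86 at P0, a difference of 1.43 (1.02 to 1.82). The receptor *Notch2* was 1.02 and 1.08 higher, whereas *Notch1* was at 0.87 and -0.31. The target *Nrarp* was 1.93 and 1.23 higher, and the target *Hes1* 0.94 and 0.69. The ligand *Dll1* was -1.21 and -0.94, *Jag2* was -1.28 and -0.45, and *Jag1* was 0.93 and 0.13. *Lfng*, a glycosyltransferase that tunes the receptors, had 0 member UMIs at E16.5, which allows up to 6.05 CPM by 3 counts, beside 49.6 CPM in *Krt15*-high cells, and at P0 it was at 14.7 against 74.1. In all, 3 of 10 genes were higher and 3 lower at E16.5, and 3 higher and 1 lower at P0.

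Smaller groups of signalling genes gave few differences. Of 11 calcium-binding and S100 genes, 3 were higher and 1 lower at E16.5 and 2 higher and 1 lower at P0, with *Calml3* at 2.44 and 1.44 and *S100a6* at -2.34 and -1.31. Of 6 genes of the EGF family, 2 were higher at each stage, and at P0 1 was lower. *Erbb3* was 1.07 and 1.04 higher, and *Hbegf*, a ligand, 0.67 and 1.53. Antimicrobial and cytokine genes had 0 higher of 3 and 2 lower at E16.5, and 2 higher of 6 and 1 lower at P0. *Cxcl14*, a chemokine of basal keratinocytes, was at 133 CPM against 1292 and at 432 against 1558.

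Genes of cell division were lower in members at P0, and mostly within 2-fold at E16.5. Of 19 mitotic genes, 2 were at least 2-fold lower at E16.5 and 19 at P0, none was higher, and the medians were -0.58 and -1.94. Their summed level was 1224 CPM in members and 1983 in *Krt15*-high cells at E16.5, and 218 and 1614 at P0. *Ube2c*, the ubiquitin-conjugating enzyme of mitotic exit, was -0.89 (-1.24 to -0.56) at E16.5 and -3.02 (-3.39 to -2.65) at P0, and *Hmmr* was the least lowered at E16.5 at -0.15. Genes of S phase were at least 2-fold lower in 7 of 18 and 13 of 17. The cycle exit list also holds the D cyclins *Ccnd1*, *Ccnd2* and *Ccnd3*. Of its genes, 1 of 10 was higher and 4 were lower at E16.5, and 1 of 8 higher and 3 lower at P0. The higher one was *Cdkn1a* (p21), at 282 CPM against 31.3 and 694 against 188. *Ccnd2* (cyclin D2) was lowest at -2.32 and -2.31, and *Ccng2* (cyclin G2) was at -1.25 and -1.36. *Ccnd1* (cyclin D1) was at -1.03 and -1.75, so the lower genes were in part D cyclins.

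The mitotic UMIs of members were concentrated in a few cells. Without thinning, 12 of 36 members (33.3%) at E16.5 and 3 of 95 (3.16%) at P0 had 10 or more mitotic UMIs. Of the *Krt15*-high cells, 301 of 591 (50.9%) and 131 of 433 (30.3%) did. Depth was not adjusted for in these counts. Its median per cell was 11452 UMIs in members and 13701 in *Krt15*-high cells at E16.5, and 11887 and 7893 at P0. Of the members with 10 or more, 5 of 12 at E16.5 and all 3 at P0 were at or above the *Krt15* limit. Of all members, 14 of 36 and 70 of 95 were. At E16.5, 72.2% of members (54.8 to 85.8) had any mitotic UMI after thinning, and 81.9% of *Krt15*-high cells (78.5 to 84.9). At P0 the shares were 26.3% (17.8 to 36.4) and 59.1% (54.3 to 63.8). Endothelial cells, a dividing type that cannot serve as a blank, stood at 79.5% and 51.1%. Without thinning the shares of members and *Krt15*-high cells were 91.7% and 96.3% at E16.5 and 75.8% and 75.5% at P0. Members were the shallower cells at E16.5 and the deeper ones at P0, and the part of depth was not tested.

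**Figure D3:**
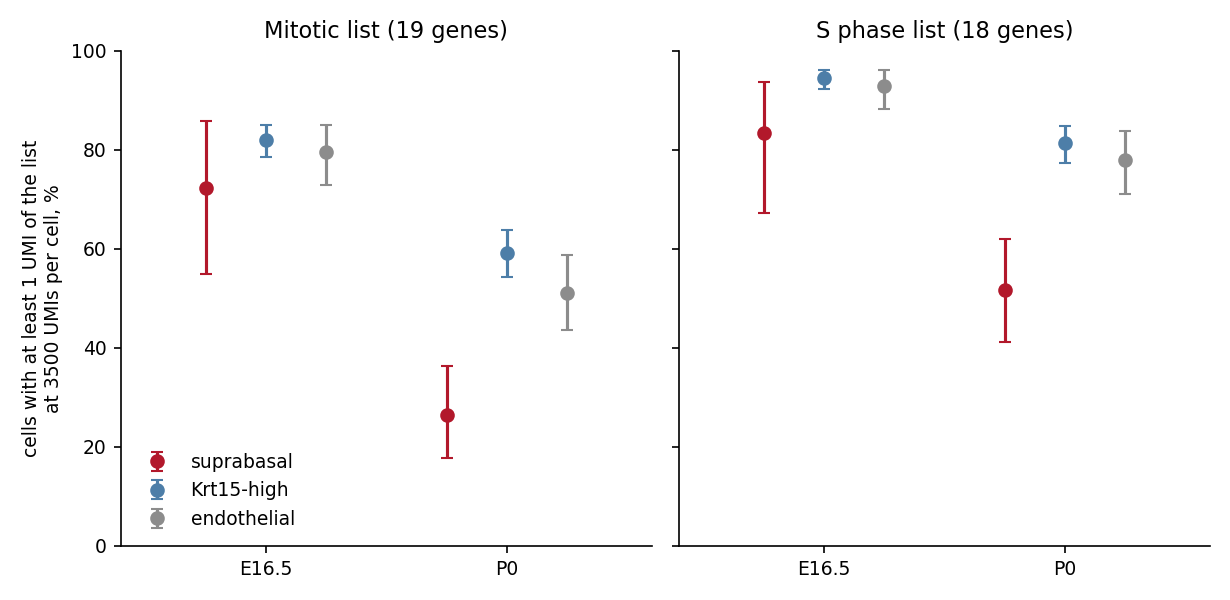
Share of cells with at least 1 UMI of any of 19 mitotic genes (left) or 18 S phase genes (right, percent on the vertical axis) after thinning to 3500 UMIs, for members, *Krt15*-high cells and endothelial cells at E16.5 and P0, with exact binomial 95% intervals as bars. The mitotic interval of members at P0 (17.8 to 36.4) lies below that of the *Krt15*-high cells (54.3 to 63.8), while at E16.5 the intervals overlap.

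RNA of other cells and signs of cell state differed beside these results. Mitochondrial UMIs were 5.32% of a member in the median at E16.5, with a range from 0.125% to 26.4%, and 3.43% of a *Krt15*-high cell, and 10 of 36 members (27.8%) were at 10% or more beside 12 of 591 (2.03%). At P0 the medians were 3.36% and 3.51%. With cells under 10% only, spinous genes at E16.5 were higher in 10 of 14 with a median of 2.18, hemidesmosome genes were lower in 11 of 16 with -1.38, and the mitotic counts were 1 of 19 at E16.5 and 19 of 19 at P0. Immediate early and heat shock genes, which respond to dissociation, summed to 1515 CPM in members and 2502 in *Krt15*-high cells at E16.5 and to 10298 and 8345 at P0. Dermal collagen and matrix genes summed to 1596 against 3063 CPM and 1510 against 2380, and globin genes to 1071 against 2390 and 262 against 3614. In single *Krt15*-high cells globin reached 338384 CPM at E16.5 and 331688 at P0, beside 2241 and 757 in members. The 4 globin genes, whose copies share reads, are among the 5 lowest genes at P0, and the part of such cells in that order was not tested. Over single cells the median globin level was 1039 CPM in members and 916 in *Krt15*-high cells at E16.5. At P0 the medians were 245 and 270 CPM, so they were close where the sums were not. Among all marker lists of other cell types, upper follicle markers alone had genes at least 2-fold higher in members, *Cst6* at both stages and *Krt79* at P0, while *Lrig1* of the same list was at -0.68 and -1.13. *Cst6* is also in the cornified envelope list, so it counts in both. At P0 1 member held 61.4% of its member UMIs, and without that cell *Cst6* was 1.85 higher and *Krt79* 1.37. Endothelial markers summed to 22.2 and 22.1 CPM in members, immune markers to 14.1 and 5.89, and melanocyte markers to 4.03 and 21.3. Follicle markers summed to 855 CPM in members and 456 in *Krt15*-high cells at E16.5, and to 1953 and 2504 at P0. Of that list, *Krt17* had a UMI in 444 of 591 *Krt15*-high cells at E16.5 and 406 of 433 at P0. Its medians over these cells were 164 and 1412 CPM. The *Krt15*-high cells were thus not shown to be basal cells of the interfollicular epidermis alone.

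Members were not uniform in *Krt15*. Of the members, 22 at E16.5 and 25 at P0 had a *Krt15* value below 2.5, with 2 and 7 members within 0.25 of that limit. Whether the members form a range or separate populations was not tested. At P0, 84 of 3083 qualifying genes (2.72%) were at least 2-fold higher in the low cells and 142 (4.61%) lower. *Krt10* itself was at 26170 CPM in the low cells and 12627 in the high ones, *Calm4* at 8081 and 2757, and *Krt5* at 239 and 3514. Cornified envelope genes were higher in 6 of 8 with a median of 1.64, and barrier lipid genes in 6 of 8 with 1.43. *Cst6* (cystatin M/E), an inhibitor of epidermal proteases, was at 1600 CPM in the low cells, 22 of 25 of them with a UMI, and at 44.8 in the high ones, a difference of 4.88 (4.50 to 5.26). However, 1 of the 25 low cells held 61.4% of all *Cst6* UMIs of members at P0. That cell stood apart, with *Cst6* at 24782 CPM, *Krt17* at 32147, *Krt79* at 22971 and *Sprr1a* at 6055 beside *Krt10* at 3246, the lowest of any member. Left out after its values were seen, it took *Cst6* in the low cells to 571 CPM and the difference to 3.41. Cornified envelope and barrier lipid genes were still higher in 6 of 8 each, with medians of 1.68 and 1.41. *Ly6g6c* was at 1504 and 150 CPM, *Sprr1a* at 430 and 15.3, and *Klk7* (a kallikrein of the outer layers) at 438 and 36.6, the last from 10 cells in all. Without the same cell these were 1352 and 150 CPM, 180 and 15.3, and 269 and 36.6. The 2 upper follicle genes that qualified were also higher in the low cells, and that list summed to 5349 CPM against 897. Without the same cell *Krt79* was at 2882 CPM in the low cells and 834 in the high ones, a difference of 1.78. *Col17a1* was at 5.31 against 124 CPM and *Itga6* at 13.3 against 144, with 5 of 7 hemidesmosome genes lower. In contrast, *Ly6d* differed by 0.32, *Lypd3* by 0.74 and *Cdkn1a* by 0.34, so these were close on both sides of the limit.

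At E16.5 the same split gave smaller shares of genes past 2-fold, but over an unlike set of genes. Members held 495723 UMIs at E16.5 and 1359351 at P0, so the same minimum of UMIs asked for a higher CPM at E16.5. Fewer genes qualified there than the 3083 at P0, and whether the split was shallower was not tested. Of 1318 qualifying genes, 20 (1.52%) were at least 2-fold higher in the low cells and 16 (1.21%) lower. *Ly6g6c* was 3.20 higher (2.24 to 4.17), *Krt77* 1.91, with a UMI in 12 of 22 low cells and 2 of 14 high ones, and *Fam25c* 1.79. *Krt14* was 2.47 lower on the log2 scale, at 1052 CPM against 5890, and *Krt17* 3.12 lower, at 200 against 1811. *Cst6* was at 110 and 128 CPM, without the separation seen at P0. Against the *Krt15*-high cells, *Krt17* was -1.04 in the 22 low cells and 0.97 in all 36 members, of which 1 held 60.4% of the *Krt17* UMIs.

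**Figure D4:**
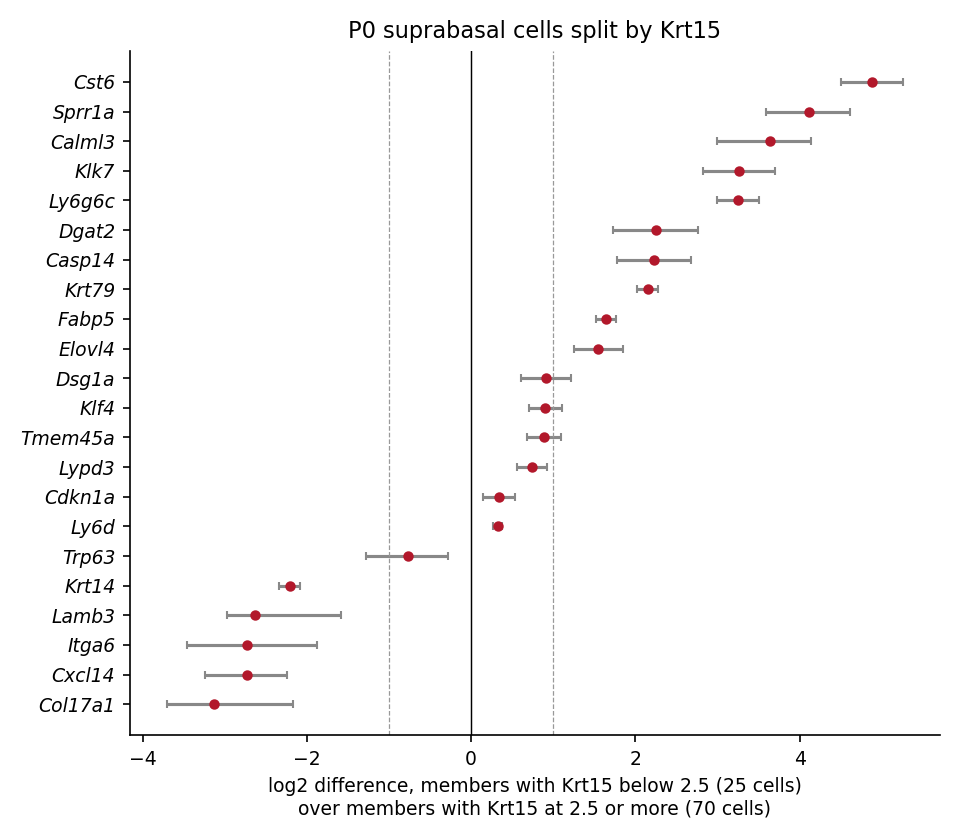
Difference at P0 of the 25 members with *Krt15* below 2.5 over the 70 members at or above it (log2 of CPM + 10, horizontal axis) for named genes (vertical axis), with 95% counting intervals as bars and dashed lines at 2-fold. *Cst6* lies at 4.88, *Ly6d* at 0.32 and *Col17a1* at -3.13.

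Across single members, described with no test since the cells share a library and its depth, *Krt10* and *Krt1* went together (Pearson's r = 0.89 at E16.5 over 36 cells and 0.93 at P0 over 95, Spearman's rho = 0.88 and 0.91). *Krt14* and *Krt5* also went together, at r = 0.75 and 0.73 (rho = 0.81 and 0.77). *Krt14* and *Calm4* went apart at P0, with r = -0.45 and rho = -0.68, and less so at E16.5, with -0.26 and -0.36. *Krt10*, *Krt1*, *Krt5* and *Calm4* are genes of the rule, so each of these pairs holds at least 1 gene that chose the cells.

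*Krt79*, a keratin of the upper hair follicle and sebaceous duct, also differed among the members at P0, and overlapped with the *Krt15* split. It was looked at after its values were known. It was at 1638 CPM in members and 531 in *Krt15*-high cells at P0, and had 4 UMIs in 36 members at E16.5. At P0 34 of 95 members had a UMI, 19 of them exactly 1, and the highest cell was at 33213 CPM. After thinning, the share with a UMI was 22.1% in members, 20.3% in *Krt15*-high cells and 7.39% in endothelial cells, which had a median of 8874 UMIs (35.8%, 30.9% and 17.6% without thinning). Between the 34 members above 0 and the 61 at 0, 50 of 3093 qualifying genes (1.62%) were at least 2-fold higher and 16 (0.517%) lower. *Klk7* was at 385 CPM against 2.37, *Krt77* at 164 against 5.94, *Penk* (proenkephalin) at 623 against 67.7 and *Cst6* at 1052 against 122, and all 84 *Flg* UMIs were in cells with *Krt79*, 67.9% of them in 1 cell. Without the cell richest in *Cst6*, *Klk7* was at 261 against 2.37 and *Cst6* at 293 against 122. *Calm4* was at 5351 and 3548 CPM and *Krt10*, which the rule held high in all of them, at 14184 and 17732. Without the 34 cells, *Klk7* was 1.11 lower on the log2 scale in members than in *Krt15*-high cells, against 2.57 with them, and *Calml3* was at -0.08 against 1.44. The median of cornified envelope genes at P0 was 1.30 without them, and 2.05 with them. Between members above 0 and at 0 for *Krt79*, with the cell richest in *Cst6* left out, 2 of 8 of these genes were higher and 0 lower. Their median was then -0.11, and *Sprr1a* was at 0.33.

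Some genes were separated from *Krt15*-high cells to an unlike extent at E16.5 and P0. *Ly6d* had a difference 4.14 smaller at P0 (3.98 to 4.29), with a *Krt15*-high level that went from 29.9 to 2129 CPM. *Krt77* was 3.32 smaller (2.94 to 3.72), *Lgals3* 1.94 smaller, *Dsc3* 1.59 smaller, *Dsg1a* 1.53 smaller and *Gja1* 1.43 smaller. *Sprr1a* was 5.90 larger (5.08 to 6.54), and *Fabp5* 1.66 larger (1.53 to 1.79). Among division genes *Ube2c* was 2.13 further down at P0 and *Top2a* 1.80 further. These gaps are between 2 libraries, and each has no replicate.

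**Figure D5:**
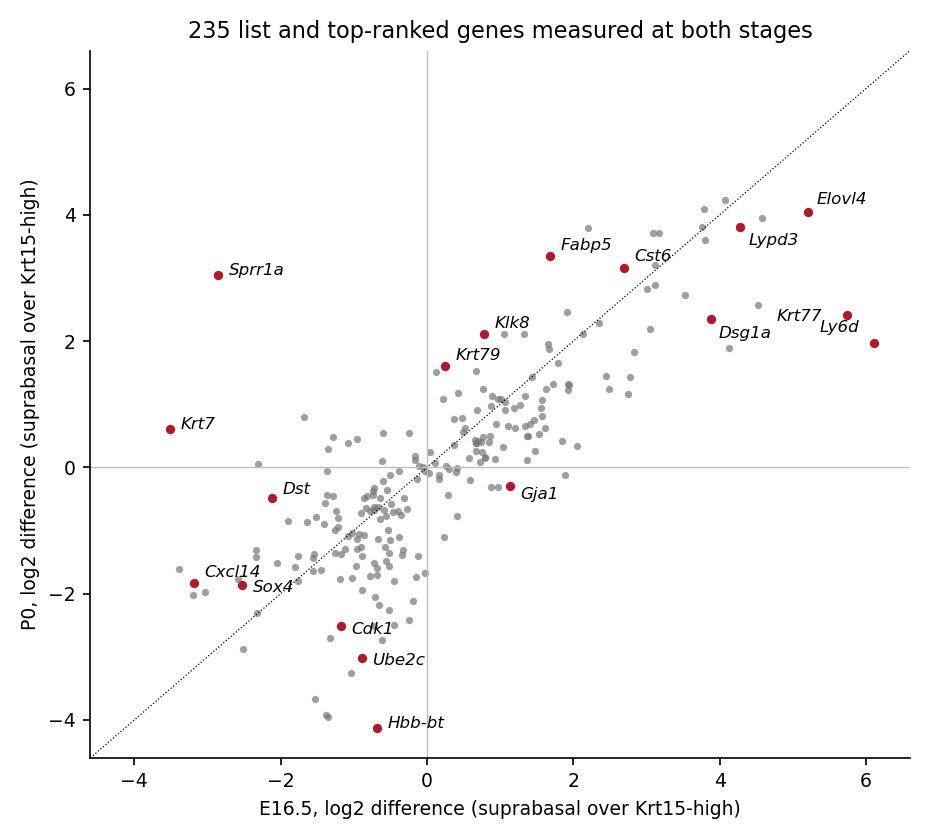
Difference of members over *Krt15*-high cells (log2 of CPM + 10) at E16.5 (horizontal axis) against P0 (vertical axis) for the listed and top-ranked genes that qualified at both stages, 1 point per gene and the dotted line for equal differences. *Ly6d* lies at 6.11 and 1.98, *Sprr1a* at -2.85 and 3.05, and *Ube2c* at -0.89 and -3.02.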

How the data were processed

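Per the labels and the methods, 1 library was made per stage with the Chromium 3′ kit (version 2). The authors aligned reads to mm10 and counted UMIs with Cell Ranger 2.2.0 (named in the submitters' processing notes), dropped cells under 1750 genes and genes found in under 3 cells, and deposited natural log values (ln) of 1 plus UMIs scaled to 10000 per cell. The formula was read from the values. Turned back into UMIs, all 48197283 values above 0 lay within 0.01 of a whole number. The table holds 16235 cells, all with 1750 genes or more, while the design text of the series gives 15086.

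The members and gene lists were chosen with earlier results of these data known. UMIs were summed over the cells of a group, since cells are not replicates. CPM carry exact Poisson 95% intervals, shares exact binomial ones, and differences an interval joined from both CPM intervals, all for counting error only, because 1 library per stage allows no test. Genes needed 50 UMIs in both groups together, 10 CPM were added before logs, and the 14 genes of the rule were left out of all counts. For shares, each cell was thinned to 3500 UMIs, which no cell fell below in the groups compared. Endothelial cells had at least 2 of *Pecam1*, *Kdr*, *Cdh5*, *Tie1* and *Egfl7* above 0 and *Krt5* at 0. Because *Krt5* at 0 was required, their shares for keratinocyte genes such as *Krt14* may understate free RNA. Doublets were called with Scrublet in scanpy 1.11.5 and kept in the main values. The genes named are those of the rule, examples from the 30 lists and genes among the 10 highest and 10 lowest per stage. The list examples include genes that are not the extremes of their list. *Krt79* and the genes of its split were chosen after their values were seen. Work was done in Python 3.11.15 with numpy 2.4.6, scipy 1.17.1, pandas 2.3.3 and matplotlib 3.10.9. The difference was also run on simulated Poisson counts with planted folds, which hold no spread between cells and so say nothing of it.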

Additional observations from a re-analysis of the deposited data

Results flagged for a closer look

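*Sprr1a*, a small proline-rich protein of the cornified envelope, was the gene among those named whose difference passed 2-fold in opposite directions at the stages. It was -2.85 at E16.5 (8.07 CPM in members and 120 in *Krt15*-high cells) and 3.05 at P0 (130 and 6.90 CPM). Each value comes from 1 library, and the difference between the stages was not tested. At E16.5 the 4 member UMIs were in 4 of 36 cells, and at P0 20 of 95 members had a UMI, with 54.8% of the UMIs in 1 cell. Without that cell the value at P0 was 2.04. At E16.5, without the *Krt15*-high cells that had a periderm gene (*Krt4*, *Krt6a*, *Krt13* or *Gabrp*), 14 UMIs were left in 554 such cells. *Sprr1a* then fell under the minimum of 50 UMIs, with a difference of 0.63, so the opposite direction was lost.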

How the results depend on the processing

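Each value was recomputed with 1 choice changed at a time. Over 83 named genes, 2573 of 2691 recomputed differences kept their direction and their side of 2-fold, 67 fell under 2-fold, 42 came to pass it and 9 turned, and 78 of 119 differences past 2-fold stayed so under every alternative in which the gene qualified. With a *Krt10* limit of 4, 713 genes were lower at E16.5 and 75 cells remained at P0, and with a floor of 2500 genes also 75. With *Krt15* below 2.5, 22 and 25 members remained, 735 genes were lower at E16.5, and 414 were higher and 1185 lower at P0. With 1 added to each CPM, 757 were higher and 1393 lower at E16.5 and 395 and 1057 at P0, and with 50 added 152 and 73, then 103 and 84. A floor of 200 UMIs left 218 higher at E16.5, and 139 higher and 270 lower at P0. Demanding *Krt79* at 0 left 61 members at P0, where *Calml3* was then at -0.08, *Klk7* at -1.11 and *Krt79* at -5.76. The unthinned mitotic shares were 91.7% and 96.3% at E16.5 and 75.8% and 75.5% at P0. At E16.5 *Krt17* turned to -1.78 with the *Krt10* limit of 4 and to -1.04 with *Krt15* below 2.5. *Crct1* turned to 0.45 with a *Krt10* limit of 3 and 0.25 as a mean of the cells' own CPM, and *Cnfn* to 0.79 by that mean and 2.69 against *Krt15*-high cells without periderm genes, where *Sprr1a*, then under 50 UMIs, was at 0.63. The limits on cells, UMIs and the added constant change the cells, genes or folds counted by construction, and other causes were not tested. The alternatives on *Krt79*, periderm genes and mitochondrial share were chosen after seeing the data. With genes at 0 set to the floor of 3 counts, the median of periderm genes at E16.5 went from -1.98 to -1.64, of melanocyte genes from -0.65 to -0.31 and of Schwann cell genes from -0.53 to -0.18. No paired analysis was possible because each stage was 1 library, which also left no replicate to leave out. The 36 members at E16.5 hold 495723 UMIs, so a gene with no UMI can be at up to 6.05 CPM, and genes seen in a few cells are not resolved.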
